A study of Mus musculus with 24 samples.

Results

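Myt1l, Myt1 and St18 are the 3 members of the MYT family of zinc finger genes in the mouse, and MYT1L binding on each of them was read from 4 lists of CUT&RUN sites in cortex. A site was counted when it lay in a gene body or within 20 kb of it, the stretch called the locus here. That rule took 3 of 21938 protein-coding genes and 88 of the 144257 sites that the 4 lists hold, 61 of them at Myt1l, 6 at Myt1 and 21 at St18. CUT&RUN uses an antibody to bring a nuclease to a protein on chromatin and sequences the DNA fragments that are cut free. The labels give C57BL/6J for all mice, while the study's methods describe the mutant line as made in and bred to C57BL/6N. By the labels, the groups were wild-type (WT) cortex late in embryonic life (E18.5), WT prefrontal cortex at birth (P0), and prefrontal cortex of 3-month-old adults that were either WT or heterozygous for a Myt1l mutation (HET). The methods name prefrontal cortex at every stage, E18.5 included. Per the study's methods the HET allele is a germline CRISPR deletion that shifts the reading frame in exon 6, the first coding exon, and a shortened protein that does not enter the nucleus is still made, so HET cortex keeps 1 intact copy of the gene. Each group had 3 MYT1L libraries that were merged into 1 list of positions with no height or score, so no value below has a replicate error and none was tested between groups. E18.5 and P0 carry sequencing run 1 and both adult groups run 2, so age and run cannot be told apart. The lists hold no expression values, and the identity of the tissue could not be checked against marker genes.

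MYT1L, MYT1 and ST18 carry clusters of CCHHC zinc fingers that read a short AAAGTT core in DNA. They are best known as repressors that recruit the SIN3 and histone deacetylase machinery. MYT1L is expressed in almost all neurons, where it holds down genes of other lineages, MYT1 is linked to neurogenesis and to endocrine cells of the pancreas, and ST18 to differentiating neurons and beta cells. A factor that binds its own gene or those of its relatives is placed to control its own dose, which is the question that sites at these 3 loci bear on.

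The sequences that carry the account are stretches inside sites of several lists and a few of the AAAGTT cores inside sites. Coordinates are on mm10, sequences are from the GRCm38.p6 reference genome of RefSeq, and each runs 5′ to 3′. Stretches common to several lists are shown first, because they are the bases on which lists coincide. They are on the plus strand and are in lower case throughout, as they hold no AAAGTT.
Myt1l, chr12:29535092-29535228, the whole adult HET site, inside sites of P0 and adult WT: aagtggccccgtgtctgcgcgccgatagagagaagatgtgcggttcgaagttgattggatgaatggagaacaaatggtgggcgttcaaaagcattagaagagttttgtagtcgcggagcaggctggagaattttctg
Myt1l, chr12:29755550-29755652, intron 4, common to adult WT and adult HET: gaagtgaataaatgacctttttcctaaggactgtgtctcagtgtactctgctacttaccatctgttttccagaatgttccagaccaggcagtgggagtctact
Myt1, chr2:181767294-181767422, common to P0 and adult WT: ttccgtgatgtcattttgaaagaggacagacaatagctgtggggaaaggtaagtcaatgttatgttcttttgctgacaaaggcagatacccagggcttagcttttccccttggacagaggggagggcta
St18, chr1:6732403-6732424, intron 2, common to E18.5, P0 and adult WT: ttatccttatgtgaccttccat

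The last set shows AAAGTT in capitals with the bases around it, on the strand that reads AAAGTT. The first 4 are neighbours in intron 1 of Myt1l inside the E18.5 site. The first of them straddles the edge of a P0 site and the others lie inside one. The next pair lies in intron 2 of St18 inside sites of the same lists, and the last is the core inside the widest Myt1 site, at P0.
Myt1l, chr12:29529647-29529676, minus strand: catctcttttatAAAGTTaaacaattagaa
Myt1l, chr12:29529776-29529805, minus strand: tggggtagactaAAAGTTaatcttataata
Myt1l, chr12:29529861-29529890, minus strand: aggaaagacaatAAAGTTctttgaggcgga
Myt1l, chr12:29529959-29529988, plus strand: gaaactctccttAAAGTTatgcttcactat
St18, chr1:6732478-6732507, plus strand: atagttaagttgAAAGTTtaacatcatgaa
St18, chr1:6732532-6732561, minus strand: gattagcagtccAAAGTTtcttttaatgtt
Myt1, chr2:181766417-181766446, minus strand, P0: tgttttgatactAAAGTTctcccaaaacaa

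Myt1l and St18 held sites in all 4 lists, and Myt1 only in those of P0 and adult WT. Myt1l had 6 sites at E18.5, 30 at P0, 9 for adult WT and 16 for adult HET. Myt1 had 0, 3, 3 and 0 in the same order, and St18 had 1, 4, 7 and 9. Having a site is common among genes: at least 1 lay in the locus of 49.0% of protein-coding genes at E18.5, 69.1% at P0, 54.1% for adult WT and 68.9% for adult HET. Among the 4235 genes with a locus of at least 100 kb, which all 3 members have, these shares were 65.4, 89.7, 82.7 and 92.9%. The presence of a site therefore sets no member apart. Myt1 was among the minority of long loci with none at E18.5 and in adult HET. Its locus, at 104 kb, only just passes the 100 kb limit. The members differed in how many sites they held and in how much of the locus these covered. More sites than at Myt1l were found at 138 genes at E18.5, 21 at P0, 290 for adult WT and 183 for adult HET.

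**Figure D1:**
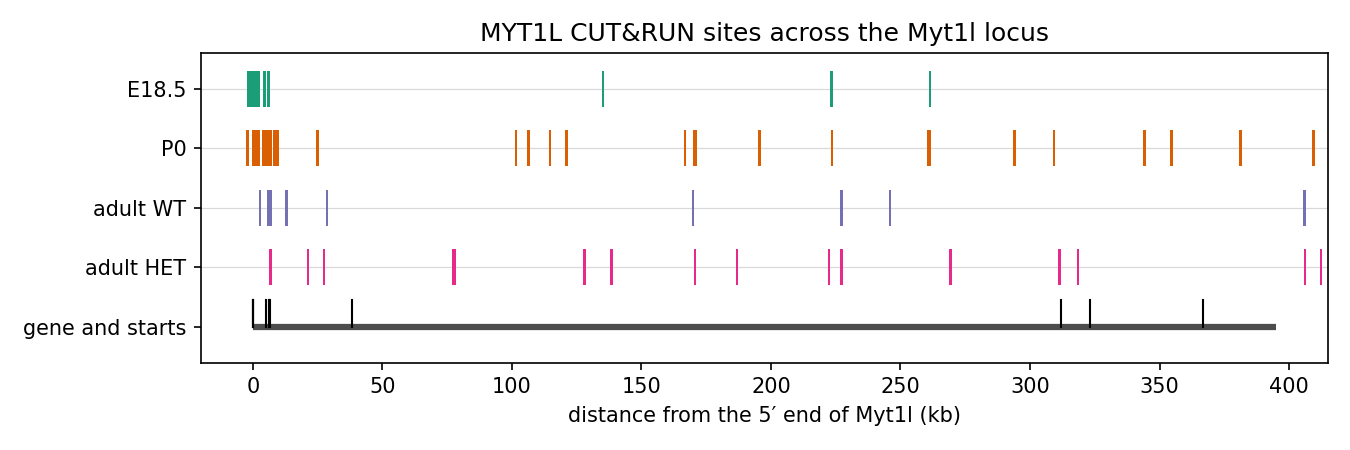
Sites of the 4 lists along the Myt1l locus, with distance from the 5′ end of the gene in kb on the x axis and 1 row per list. Vertical black marks are annotated transcription starts, the grey bar is the gene, and sites are drawn at least 1 kb wide so that they can be seen. The E18.5, P0 and adult WT lists are densest at the 5′ end, and the adult HET sites are spread along the introns.

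Bases inside sites took up 2161 bp per 100 kb of the Myt1l locus at E18.5, 2829 at P0, 443 for adult WT and 413 for adult HET. Over the whole genome the same lists covered 367, 528, 241 and 241 bp per 100 kb. Myt1l thus lay at 5.89 and 5.36 times the genome rate in the younger lists and at 1.83 and 1.72 times in the adult ones. Of genes with a long locus, 97.0% had a lower value than Myt1l at E18.5, 98.1% at P0, 78.3% for adult WT and 85.5% for adult HET. Over all protein-coding genes these shares were lower, at 87.9, 91.2, 77.8 and 79.9%. Myt1 covered 1359 bp per 100 kb at P0 and 637 in adult WT, or 2.58 and 2.64 times the genome rate, and was at 0 in the other lists. St18 was below the genome rate at E18.5 and P0, with 202 and 302 bp per 100 kb (ratios 0.551 and 0.573), and slightly above it in adult WT and adult HET, with 305 and 277 (ratios 1.26 and 1.15). With no replicate these ratios have no error, and the order of the members within a list cannot be tested.

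**Figure D2:**
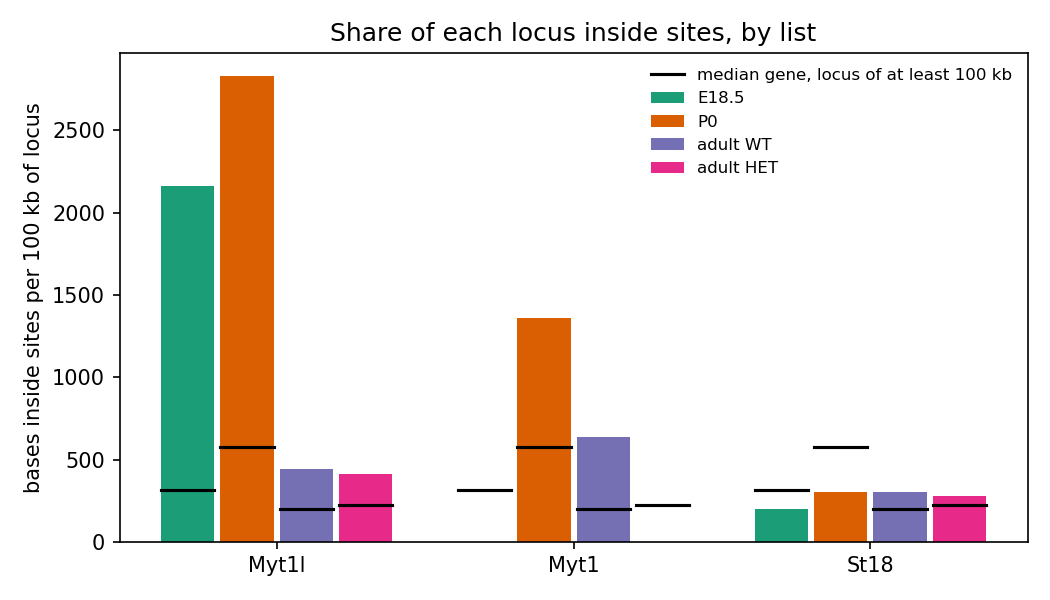
Bases inside sites per 100 kb of locus for each gene and list (bars), with the median of all genes with a locus of at least 100 kb in that list (black lines). Myt1l stands well above the median at E18.5 and P0, Myt1 is at 0 at E18.5 and in adult HET, and St18 lies below the median at E18.5 and P0.

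At the 5′ end of Myt1l, the E18.5 list held 1 site of 4809 bp, chr12:29526207-29531015, which runs to both sides of the gene start, and only 6 of the 14477 sites of that list were wider. It covers the annotated starts of the full-length transcripts Myt1l-202 and Myt1l-205 and of the short Myt1l-206, and 9 AAAGTT cores. At P0 the same stretch held 4 sites, of 241, 220, 1596 and 1540 bp, that shared 3349 bp with the E18.5 site. The 1596 bp site holds the main start, and 168 of the 40698 sites at P0 were wider. Adult WT had a single site of 99 bp there, chr12:29531151-29531249, which overlapped a P0 site but not the E18.5 one. Adult HET had none, and its nearest site began 6708 bp downstream of the main start. The main start therefore lay inside a site at E18.5 and P0, and 2767 bp from one in adult WT. Myt1l-201, a protein-coding transcript of 25 exons, starts downstream at 6.231 kb. That start lay inside a site at E18.5 alone. It was 17 bp from a site at P0, 30 bp in adult WT and 477 bp in adult HET. The noncoding gene Gm20208 runs antisense across this region, from 29526906 to 29534891 on chromosome 12, so a site there cannot be assigned to one gene over the other.

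**Figure D3:**
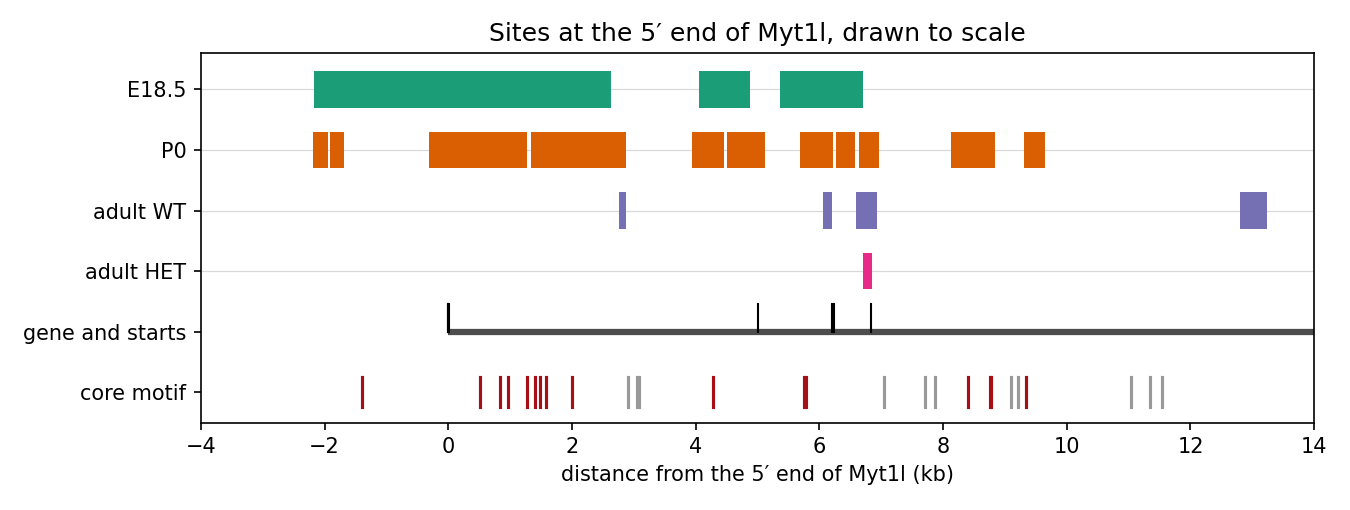
Sites of the 4 lists from 4 kb before to 14 kb after the 5′ end of Myt1l, drawn to scale on an x axis in kb. Black marks are annotated starts, and marks in the bottom row are occurrences of the core motif on either strand, red where they touch a site of any list and grey otherwise. The widest sites are those of E18.5 and P0, though some P0 sites are narrower than some of adult WT. The adult HET list has 1 site, at the start at 6.838 kb.

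Within 10 kb of the gene start, sites covered 6965 bp at E18.5, 6905 at P0, 584 for adult WT and 137 for adult HET. These were 74.1, 56.1, 30.3 and 7.62% of all bases inside sites at the locus. Only 7 protein-coding genes had more at E18.5 and 6 at P0, against 528 for adult WT and 3176 for adult HET. The rest of the locus was covered at 586, 1301, 323 and 400 bp per 100 kb in the same order, so the adult lists differed less from the younger ones along the introns than at the start. Sites were also narrower genome-wide in the adult lists, with medians of 593 bp at E18.5, 276 at P0, 167 for adult WT and 108 for adult HET, and the part of width or run in the 5′ difference was not tested.

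Downstream of the main start, E18.5 and P0 shared a stretch of intron 1 at 3.95 to 5.12 kb, with 1 site of 826 bp at E18.5 and 2 of 506 and 616 bp at P0. The second P0 site holds the start of Myt1l-210. The next stretch, at 5.37 to 6.97 kb, was the only one of 44 at Myt1l that held sites of all 4 lists. It had a site of 1330 bp at E18.5, sites of 527, 296 and 330 bp at P0, sites of 149 and 336 bp in adult WT, and 1 of 137 bp in adult HET. No base was common to all 4, since 9 bp separated the E18.5 site from the adult HET site. The start of the antisense gene Gm20208, at 6.507 kb, lies inside the E18.5 site and the 296 bp site of P0. Sites of this stretch therefore cannot be assigned to Myt1l over Gm20208. The adult HET site, whose sequence is given above, lies wholly inside sites of P0 and adult WT. It covers the start of Myt1l-208, a transcript not annotated as protein-coding, at 6.838 kb. A RefSeq promoter window at this start, 250 bases before to 50 after it, had 111, 248, 292 and 137 of its 300 bases in sites at E18.5, P0, adult WT and adult HET. The window at the main start had 300, 300, 0 and 0. A window with its start at 6218 bp, near that of Myt1l-201, had 300, 247, 149 and 0. By the count of annotated starts, 4 of the 10 start positions of Myt1l lay in a site at E18.5, 5 at P0 and 1 in each adult list, and that 1 was Myt1l-208 in both. P0 alone continued to 9.64 kb with 3 further sites of 142, 560 and 331 bp.

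Further into the gene, 2 stretches held sites at both E18.5 and P0: one in intron 4, at 223 to 224 kb, with sites of 894 and 460 bp, and one in intron 8, at 260.9 to 261.9 kb, with sites of 858 and 820 bp. P0 and adult HET shared 1 stretch in intron 3, at 170.7 kb, with sites of 280 and 96 bp. Adult WT and adult HET shared 1 in intron 4, at 227 kb, where the adult HET site of 103 bp lay wholly within the 175 bp of the adult WT site. The remaining 37 of 44 stretches were in 1 list alone. The genome-wide share of stretches in 1 list or in all 4 was not computed. Over the whole lists, 88.3% of E18.5 sites overlapped a P0 site and 7.99% of P0 sites an adult WT site. Of all adult HET sites, 4.90% overlapped an adult WT site. None of the 61 sites had its midpoint in a coding exon, and none of the sites at Myt1 or St18 did either. The same share over all sites was not computed. The first coding exon, exon 6 of 25, lies 255 kb from the main start at 29783621 to 29783675, and its nearest site was 5704 bp away at E18.5, 5539 at P0, 9174 for adult WT and 13844 for adult HET. The deletion of the HET allele thus lay outside every site listed.

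The share of Myt1l sites that reappeared in another list was read beside the share for the whole list. At E18.5, 5 of 6 sites overlapped a P0 site (83.3%, exact 95% interval 35.9 to 99.6%), beside 88.3% of all E18.5 sites. Of 30 P0 sites, 11 overlapped one at E18.5 (36.7%, 19.9 to 56.1%), beside 34.8%. Of 9 adult WT sites, 3 overlapped one at P0 (33.3%, 7.49 to 70.1%) and 2 one in adult HET (22.2%, 2.81 to 60.0%), beside 10.4 and 8.38% of all adult WT sites. Of 16 adult HET sites, 2 overlapped adult WT (12.5%, 1.55 to 38.3%) and 0 overlapped E18.5, which allows up to 20.6%, beside 4.90 and 2.74% of all adult HET sites. Every one of these intervals, which are Clopper-Pearson and cover counting error only, includes the whole-list share.

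Of the 6 sites at Myt1, 2 lay on its second cluster of starts, and none covered the first start. The P0 list held a site of 1048 bp, chr2:181766375-181767422, with 4 annotated start positions inside, among them those of the protein-coding transcripts Myt1-202 and Myt1-203. Of the 40698 P0 sites, 969 were wider. Adult WT had 1 of 147 bp that covers 2 of the same starts, and the 129 bp common to both are printed above. The start of Myt1-201, which opens the gene, lay 1254 bp from the nearest P0 site, of 172 bp, and 3962 bp from the nearest in adult WT. The third P0 site, of 200 bp, lay 74.4 kb from the gene start and covers the start of Pcmtd2, the next gene. The other 2 adult WT sites were in introns 18 and 21, of 364 and 154 bp. Neither E18.5 nor adult HET had a site within 20 kb of Myt1, and the nearest adult HET site to the start of Myt1-202 was 50096 bp away.

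**Figure D4:**
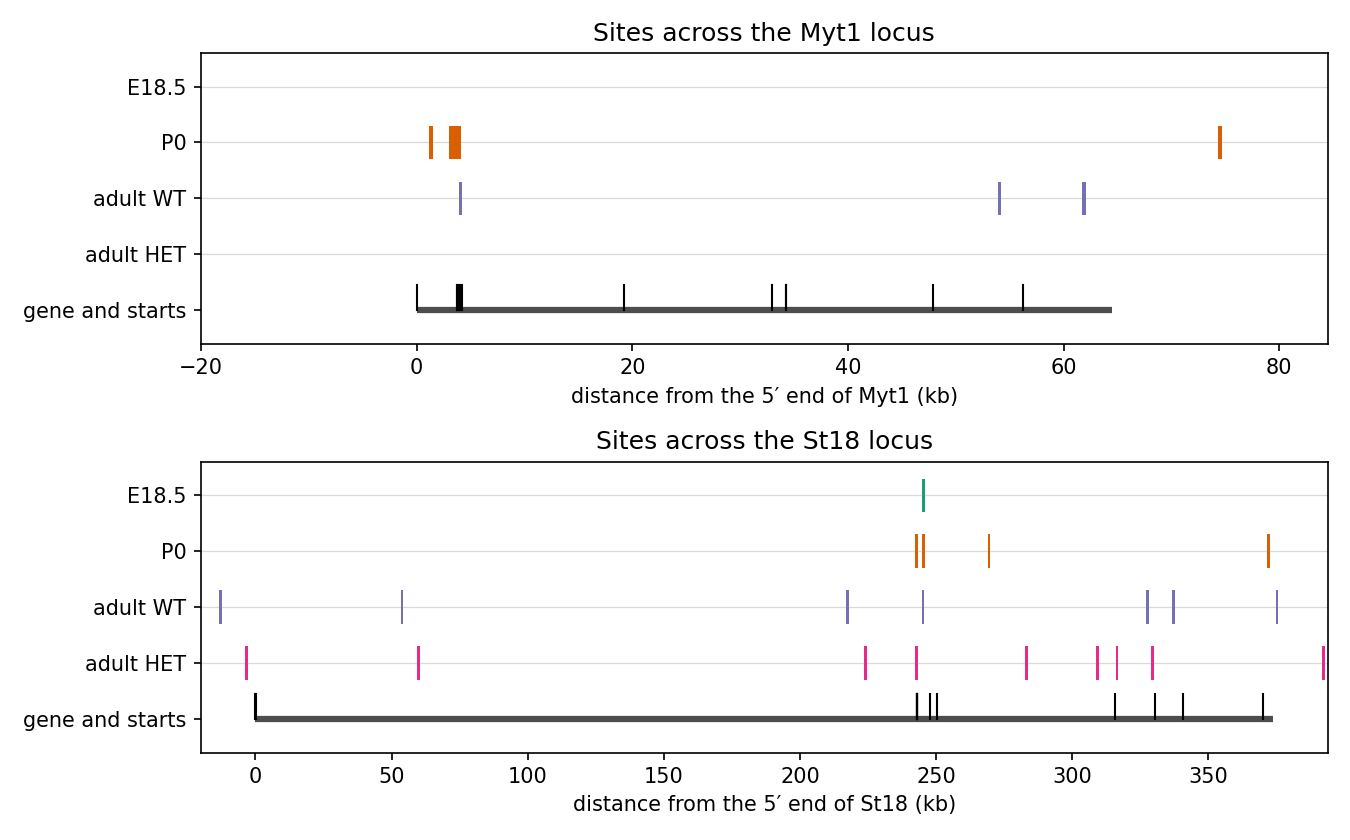
Sites of the 4 lists along the Myt1 locus (top) and the St18 locus (bottom), with distance from the 5′ end of each gene in kb. Black marks are annotated starts, the grey bar is the gene, and sites are drawn at least 0.3 kb (Myt1) or 1 kb (St18) wide. At Myt1 the P0 and adult WT sites meet at the starts near 4 kb, and at St18 sites of all 4 lists lie between 242.6 and 245.6 kb.

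At St18 an internal cluster of starts lay inside a P0 site, and each other list had a site near that cluster but no start inside a site. The starts of St18-208 and St18-204, which open the gene, lay in no site, and the nearest was an adult HET site of 178 bp 3274 bp upstream. The internal cluster, at 242.8 kb, has 5 start positions, and a P0 site of 569 bp covers all 5. The adult HET list had a site of 177 bp inside it that ended 71 bp before the first of these starts. About 2 kb downstream, in intron 2, the E18.5 list had its only site at the locus, of 836 bp. P0 had 1 of 292 bp within the same stretch and adult WT 1 of 151 bp. The 22 bp common to those 3 lists are printed above. The remaining 16 of 18 stretches at St18 were in 1 list each, a count that also has no genome-wide share beside it. None of the 7 adult WT sites overlapped any of the 9 adult HET sites, which allows a share of up to 41.0%, beside 8.38% of all adult WT sites.

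The AAAGTT core, searched on both strands, was denser inside the Myt1l sites of E18.5, P0 and adult HET than along the locus. Sites held 1.49 cores per kb at E18.5 (14 cores) and 1.46 at P0 (18 cores), beside 0.759 per kb over the whole Myt1l locus and 0.979 and 1.01 per kb in all sites of these lists. None of the 1925 bp in adult WT sites at Myt1l held a core, beside 1.01 per kb in all sites of that list. At that rate a stretch of this length would hold few cores. Adult HET sites at Myt1l held 3, or 1.67 per kb, beside 1.06 in all sites of that list. Among these, the core at 406.0 kb lies past the 3′ end of Myt1l and nearer to the neighbouring gene Pxdn. The P0 core at 409.4 kb lies inside Pxdn. At St18 the E18.5 site held 4 cores in 836 bp and the P0 sites 4 in 1251 bp, or 4.78 and 3.20 per kb, while adult WT sites held 1.59 and adult HET sites 0.874, beside 1.12 per kb over that locus. Of the 23 cores that touched a site at Myt1l, 13 touched sites of at least 2 lists, in each case E18.5 and P0. No such share was computed over all cores in sites, and 88.3% of all E18.5 sites overlapped a P0 site. The main start window holds no core, and neither does any other RefSeq promoter window of Myt1l. Of the 3 windows of Myt1, 2 hold a core, beside 14.1% of the 32851 RefSeq promoters. Those 2 windows had 0 bases in sites of any list. The Myt1 window that did lie in a site, at P0, holds no core. Within 75 bp of site midpoints, a core was found at 3 of 7 sites of the 3 loci at E18.5 (42.9%, 9.90 to 81.6%), 4 of 37 at P0 (10.8%, 3.03 to 25.4%), 2 of 19 in adult WT (10.5%, 1.30 to 33.1%) and 4 of 25 in adult HET (16.0%, 4.54 to 36.1%). The whole-list shares of 15.2, 14.6, 13.8 and 14.5% lie in those intervals.

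Site widths at the loci were read beside the median of each list. The 6 E18.5 sites at Myt1l, of 680 to 4809 bp, were all wider than the list median, as were 18 of 30 at P0, 6 of 9 in adult WT and 7 of 16 in adult HET. Sites at St18 and Myt1 were wider than the median in 12 of 21 and 2 of 6 cases over all lists.

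**Figure D5:**
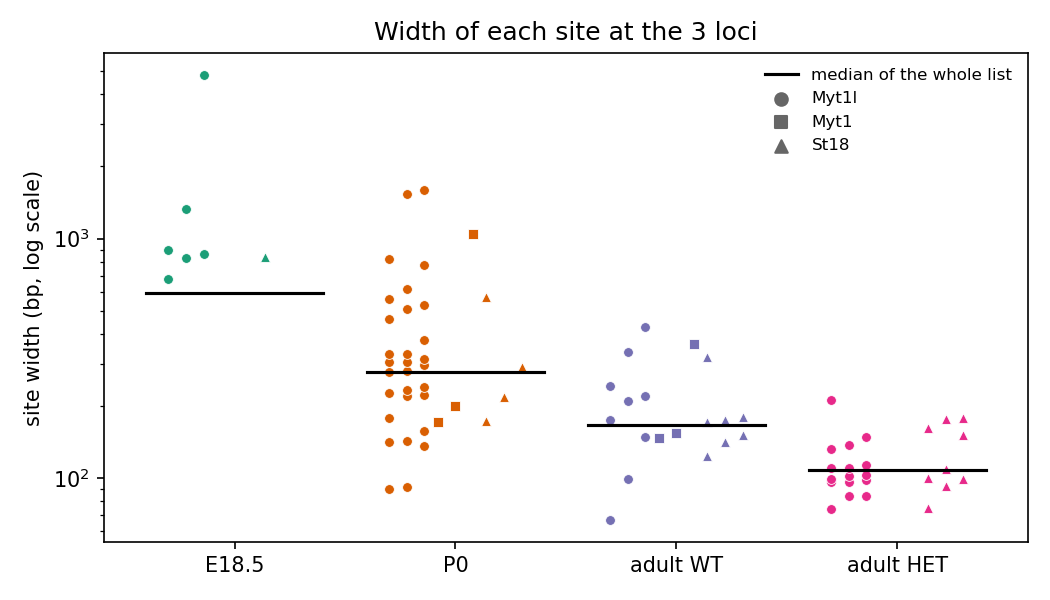
Width of each of the 88 sites at the 3 loci in bp on a log scale, by list, with circles for Myt1l, squares for Myt1 and triangles for St18, and the median of the whole list as a black line. All E18.5 points lie above their line, and the widest is the 4809 bp site at the 5′ end of Myt1l, while adult HET points scatter on both sides of theirs.

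Genes of 3 hand-chosen gene lists were also read, and whether each acts with the MYT proteins was not tested. A site no more than 5 kb from a start was the criterion, met by 31.7% of all protein-coding genes at E18.5, 48.7% at P0, 24.6% for adult WT and 30.4% for adult HET. Among genes with a locus of at least 100 kb these shares were 39.6, 67.0, 38.5 and 46.3%. Of 15 genes of the SIN3 and histone deacetylase co-repressor, 13, 12, 10 and 9 had such a site in the same order, and 5 had one in all 4 lists: Sin3a, the scaffold, Rbbp4, a histone chaperone, the histone readers Ing1 and Ing2, and Arid4a. Of 8 genes of the REST and CoREST complexes, 3, 7, 3 and 4 had a site, with Rcor1 in all 4 and Rcor3 in none. Of 12 genes chosen for a part in neuronal reprogramming or in neurogenesis, 8, 9, 4 and 2 had one. Insm1 did in all 4, and Neurog1, Nhlh1 and Nhlh2 in none. Myt1l itself had 3, 13, 3 and 3 sites within 5 kb of a start, St18 had 1, 3, 3 and 4, and Myt1 had 0, 2, 2 and 0.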

How the data were processed

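MYT1L and IgG CUT&RUN libraries of mouse cortex were sequenced in 24 samples, 3 per group in 8 groups. Following the study's methods, the authors ran nf-core/cutandrun, and the labels name mm10. Which aligner, peak caller and threshold were used is not given in the sources used here. Each deposited file holds site positions (first and last bp), merged over 3 libraries, with no score. Depth was unknown, and the 12 IgG libraries are not analysed here. Adult libraries titled Myt2l or Myt3l were taken as MYT1L libraries, since their descriptions name that list.

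The members and gene lists were chosen with earlier results of these data known. Positions count from 1. Genes and starts were those of GENCODE M21. Sites within 20 kb were taken, and sharing meant at least 1 bp. Midpoints were searched for AAAGTT within 75 bp. For 1 stretch that sites cover, the sequence is not reported here. Named genes were the members, protein-coding genes within 20 kb, partner genes with a site in all lists or in none, and the 3 genes most like each member. Gm20208, a noncoding gene, falls outside this rule and was named after its position was seen. Code ran in Python 3.11.15 with scipy 1.17.1 and matplotlib 3.10.9, and the overlap and motif steps were tested on simulated data. Alternatives were other flanks, distances, annotations, overlaps, motif windows and a width filter.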

Additional observations from a re-analysis of the deposited data

How the results depend on the processing

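Of 148 values recomputed under alternatives, 118 stayed within 1.5 times (counts and lengths) or inside the exact 95% interval (shares), and 30 did not. With sites at least as wide as the list median, Myt1l kept 18 at P0 and 7 in adult HET, Myt1 kept 1 at P0 and 1 in adult WT, and St18 kept 2 at P0, 4 for adult WT and 5 for adult HET, while covered bases per 100 kb became 221 for Myt1l in adult HET and 348 for Myt1 in adult WT. A flank of 50 kb gave Myt1 1 site at E18.5, 5 at P0 and 1 in adult HET, and the gene body alone gave Myt1 1032 bp per 100 kb in adult WT. Within 1 kb of a start, Myt1l had 6 sites at P0, Myt1 had 1 at P0 and 1 in adult WT, and St18 had 0 at E18.5, 1 at P0 and 0 in adult WT. Within 10 kb, Myt1l had 5 in adult WT. Starts of protein-coding transcripts alone left 1 site for Myt1 in adult WT, and 1 for adult WT and 2 for adult HET for St18. Searched over whole sites, AAAGTT was present in 85.7% of the 7 sites of the 3 loci at E18.5 and 37.8% of the 37 at P0. The shares for all sites in those lists were 44.3 and 27.4%. All 7 E18.5 sites were wider than their list median, and the part of width was not tested. The adult values did not move, at 15.8% for adult WT and 16% for adult HET, beside 17.5 and 11.3% of all sites. Within 250 bp of midpoints it was found in 48.6% at P0, 47.4% for adult WT and 40% for adult HET. For that window the share over all sites was not computed, so these values cannot be read as high or low. Of the 12 genes of the reprogramming and neurogenesis list, 1 for adult WT and 0 for adult HET had a site within 1 kb. No share over all protein-coding genes was computed at 1 kb, for these genes or for the members. The cause of these moves was not tested beyond the change of window or filter itself. No paired analysis was possible because the lists are merged over libraries and carry no replicate. Sites could not be filtered by their support among libraries.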

Other observations

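Across the 4 lists, the genes whose percentiles of covered bases per 100 kb were most like those of a member, by the smallest largest difference, were Gm43738, Edrf1 and Fnip1 for Myt1l, within 2.17, 2.35 and 3.03 percentile points. For Myt1 they were Gm8439, Tlnrd1 and Rcor2, each at 0 at E18.5 and in adult HET as Myt1 was. For St18 they were Pparg, Gabrg3 and Ncoa2, within 1.86, 3.15 and 3.19 points. The likeness rests on 4 values per gene.

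Past the 3′ end of Myt1l lies Pxdn, an extracellular peroxidase gene that starts 14395 bp beyond it. Sites within 5 kb of a Pxdn start numbered 0 at E18.5, 1 at P0, 2 for adult WT and 3 for adult HET. An adult WT site of 243 bp and an adult HET site of 132 bp lay between the genes, 405.7 to 406.2 kb from the Myt1l start, without touching. These sites fall in the Myt1l locus by distance alone and are nearer to Pxdn.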
